A study of Rattus norvegicus with 6 samples.

Results

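Sec63 and 9 partner genes of the protein translocon of the endoplasmic reticulum (ER) were followed in H9c2 cells, an established rat line derived from embryonic heart, with and without ginsenoside Rb2, a saponin of ginseng. They are 10 of the 24360 gene rows of the count table and were found by symbol. Sec63 was chosen by its measured rise between these same samples, and its partners by name: Sec62, Sec61a1, Sec61b, Sec61g, Ssr1, Ssr2, Ssr3, Ssr4 and Tram1. The fold change of Sec63 is therefore a description, and the partners' values come from the same contrast.

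RNA was sequenced from 3 control (Ctrl) and 3 Rb2-treated (Rb2) samples of wild-type genotype, grown with 10% serum. The labels give the same protocol for all 6: Rb2 for 48 h, loss of oxygen and glucose for 4 to 6 h, then their return for 12 h. Whether the controls went through the deprivation is not said, so the contrast is of the groups as named. The labels do not say that replicates were separate cultures, and their spread, which is all that the p-values measure, may be technical. In such bulk samples a change in the number of cells that express a gene and a change in its RNA per cell cannot be told apart.

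The translocon is the gate through which newly made secreted and membrane proteins enter the ER. Its pore is the Sec61 complex, of the subunits alpha (Sec61a1), beta (Sec61b) and gamma (Sec61g). Sec62 and Sec63 join the pore and help it to open for precursors with weak signal peptides, and Sec63 carries a J domain that recruits the chaperone BiP on the lumen side. The translocon-associated protein (TRAP) complex, made of the products of Ssr1 to Ssr4, assists a subset of signal peptides. Tram1 contacts signal sequences at the translocon.

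Promoter sequences are shown for the 4 tested genes whose Rb2 samples all lay above the Ctrl samples, as did 15.0% of all genes tested: Sec63, Sec62, Ssr3 and Ssr1. The sequences are from RefSeq, build GRCr8, in which 8 of the 10 genes had an entry. Each runs 5′ to 3′ over the 250 bases before the gene's start, at chr20:47827041-47827290 (+ strand) for Sec63, chr2:114526706-114526955 (- strand) for Sec62, chr2:151935163-151935412 (- strand) for Ssr3 and chr17:27039043-27039292 (+ strand) for Ssr1. Capitals mark CCAAT and CCACG, the ends of the ER stress element, on either strand (the latter reads CGTGG on the other).
Sec63: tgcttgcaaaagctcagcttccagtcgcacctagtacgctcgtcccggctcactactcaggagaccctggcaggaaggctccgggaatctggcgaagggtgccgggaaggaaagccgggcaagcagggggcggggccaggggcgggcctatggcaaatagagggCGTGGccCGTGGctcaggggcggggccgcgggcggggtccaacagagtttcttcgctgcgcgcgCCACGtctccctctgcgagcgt
Sec62: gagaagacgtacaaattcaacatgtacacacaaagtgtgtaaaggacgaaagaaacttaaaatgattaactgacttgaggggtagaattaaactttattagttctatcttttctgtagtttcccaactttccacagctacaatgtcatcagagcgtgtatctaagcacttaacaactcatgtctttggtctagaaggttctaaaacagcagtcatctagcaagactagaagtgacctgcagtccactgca
Ssr3: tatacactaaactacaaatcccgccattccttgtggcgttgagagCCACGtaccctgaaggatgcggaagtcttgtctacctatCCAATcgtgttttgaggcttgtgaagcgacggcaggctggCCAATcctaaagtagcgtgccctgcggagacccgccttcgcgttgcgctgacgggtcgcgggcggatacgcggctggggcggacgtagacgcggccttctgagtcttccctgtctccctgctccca
Ssr1: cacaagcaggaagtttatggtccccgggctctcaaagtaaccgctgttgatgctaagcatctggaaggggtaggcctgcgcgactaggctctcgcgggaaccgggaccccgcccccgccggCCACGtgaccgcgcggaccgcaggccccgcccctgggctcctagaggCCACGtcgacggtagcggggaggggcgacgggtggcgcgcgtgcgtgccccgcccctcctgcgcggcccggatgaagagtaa

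The ER stress element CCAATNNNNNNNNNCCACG, on either strand, was in none of the 8 windows of 300 bases (250 before and 50 after the start), and is in 0.0657% of 33465 promoters of that length. The related element ATTGGNCCACG was also in none, against 0.0508% of all promoters. The letters TGACGTG, the core of the unfolded protein response element, were in the window of Ssr4 alone, where 1.81% of all promoters hold them. The separate ends, searched after the data had been seen, were common everywhere. CCACG was in the windows of Sec63, Ssr1 and Ssr3, against 31.6% of all promoters, and CCAAT in those of Sec61g and Ssr3, against 37.5%. The Sec63 window was rich in G and C, at 68.7%, and the Sec62 window poor, at 40%, where the median of all promoters was 51.7%. These letter matches are descriptions and not binding sites.

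Levels were spread over several orders of magnitude. Per kilobase of gene, Sec61g stood highest in Ctrl at 3937 ± 357 CPM per kb (counts scaled to the library total by the TMM method), followed by Sec61b at 2161 ± 184 (SD, n = 3 each). Ssr4 followed at 540 ± 13.4 CPM per kb, Ssr2 at 263 ± 35.4 and Sec61a1 at 59 ± 14.7. Ssr1 (13.5 ± 0.546 CPM per kb) and Sec62 (11.7 ± 1.15) overlapped, and were the only neighbours in this order per kb that did. Below them stood Ssr3 at 4.39 ± 1.08, Sec63 at 0.645 ± 0.129 and Tram1, with 1 read over the 3 Ctrl samples. In Rb2 no neighbours per kb overlapped, and Sec62 (19.4 ± 0.845 CPM per kb) was above Ssr1 (16.5 ± 0.607). The length used is that of the gene row, which can exceed that of the transcript counted. It is 3306 bases for Ssr1, whose main transcript Ssr1-201 has 2417. For Sec62 both are 1818. With the transcript length Ssr1 would stand higher, so its place below Sec62 in Rb2 rests on the length used. Sec61b, at 797 bases against 520 and 523 for its main models, is understated in the same way. The reads may have been long or short, which these sources do not settle. If they were long, a level per kb understates long genes such as Sec63 beside short ones such as Sec61g. On CPM without length, Ssr1 stayed above Sec62 in both groups (44.5 ± 1.80 against 21.2 ± 2.10 CPM in Ctrl, 54.7 ± 2.01 against 35.2 ± 1.54 in Rb2; SD, n = 3). On that scale the neighbours that overlapped were Sec61g with Sec61b and Sec62 with Ssr3 in Ctrl, and Ssr3 with Sec62 in Rb2.

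**Figure D1:**
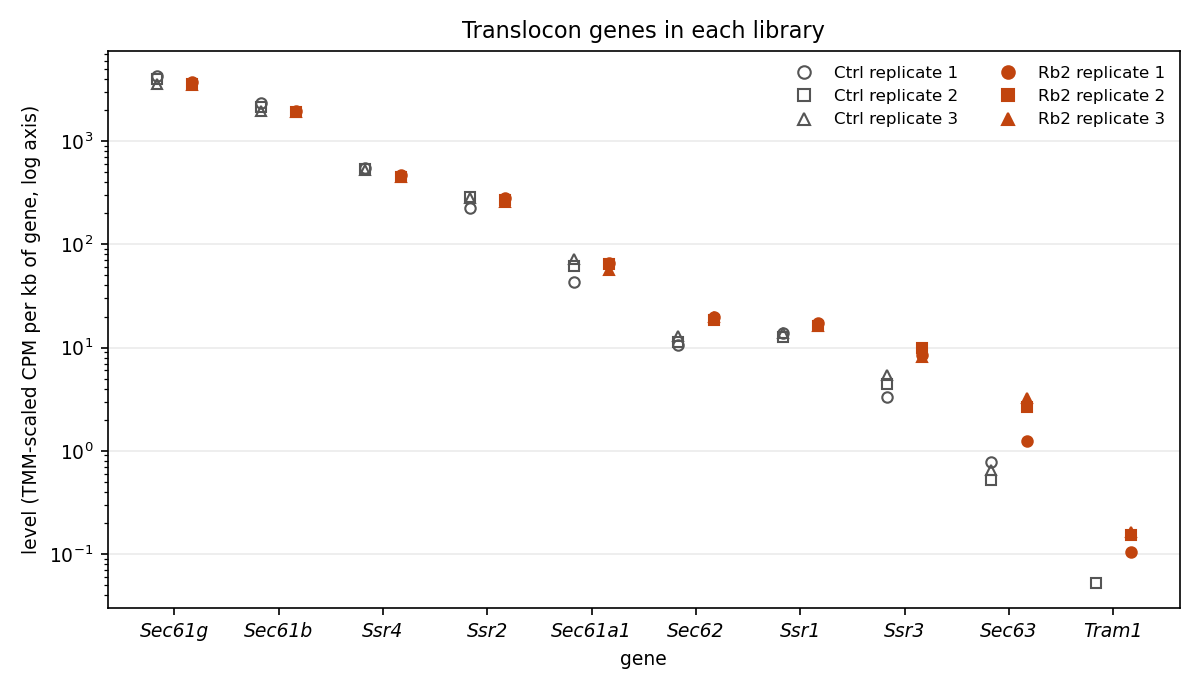
Level of each translocon gene in each library, as TMM-scaled CPM per kb of gene on a log axis; open grey symbols are the 3 Ctrl samples and filled orange symbols the 3 Rb2 samples. Of the tested genes, Sec63, Sec62, Ssr3 and Ssr1 have all Rb2 samples above all Ctrl samples, as do 15.0% of all genes tested. So does Tram1, which had too few counts to be tested. It was at 0 in Ctrl replicates 1 and 3, which a log axis cannot show.

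Of the 9 genes with enough counts to be tested, 3 were called higher in Rb2, and none lower: Sec63, Ssr3 and Sec62 (edgeR, adjusted p under 0.05). Over all 11551 genes tested, 1.90% were called higher and 0.805% lower. Sec63 was chosen by its rise between these same samples, so its call follows from that choice. Of the partners, Ssr3 and Sec62 were called, and the members were chosen with earlier results of these data known. The count is therefore a description. With a library left out, 2 genes were called higher without Ctrl replicate 1 or 3, 1 without Rb2 replicate 1, and 0 without Ctrl replicate 2 or Rb2 replicate 2 or 3. Over all genes, the calls higher in these fits, in the same order, were 605, 433, 25, 2, 0 and 1, against 219 with all samples. The median log2 fold change of the 9, Sec63 included, was 0.09, against -0.016 over all genes tested. By role, Sec62 and Sec63 were called higher, and the Sec61 subunits were not called. Of the TRAP subunits Ssr3 alone was called, Ssr4 lay below Ctrl without a call, and Tram1 was barely counted.

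Sec63 stood at 4.61, 3.07 and 3.84 CPM in Ctrl replicates 1 to 3 and at 7.30, 15.9 and 19.5 CPM in Rb2 replicates 1 to 3, from 38, 17 and 22 counts and from 41, 92 and 106 counts. Every Rb2 sample was above every Ctrl sample, but the Rb2 samples were far apart. Rb2 replicate 1, at a 95% Poisson interval of 5.24 to 9.90 CPM, lay below the intervals of replicate 2 (12.9 to 19.6) and replicate 3 (16 to 23.6), intervals that cover counting error only. The means were 3.84 ± 0.769 and 14.2 ± 6.28 CPM (SD, n = 3 each), a log2 fold change of 1.87 with an SE of 0.36, which placed Sec63 at rank 13 from the highest of all genes tested. Without Rb2 replicate 1 the log2 fold change was 2.18, and without replicate 3 it was 1.58. The call was kept in 1 of the 6 fits that left out a library, the one without Rb2 replicate 1. Without Ctrl replicate 1, 2 or 3 the edgeR adjusted p was 0.0698, 0.161 and 0.0557, and without Rb2 replicate 2 or 3 it was 0.189 and 0.16.

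Sec62, which works beside Sec63 at the pore, had 19.5, 20.6 and 23.6 CPM in Ctrl and 35.9, 33.4 and 36.2 CPM in Rb2. The groups did not overlap, and Rb2 replicate 1 was not low here. The log2 fold change was 0.73 (SE 0.14; edgeR adjusted p = 0.0365). It kept its call without Ctrl replicate 1 or 3 and lost it without Ctrl replicate 2 or any of Rb2 replicates 1 to 3 (log2 fold change 0.72, 0.72, 0.77 and 0.71; adjusted p 0.13 to 0.188). Per kb, the ratio of Sec62 to Sec63 was 13.9, 22 and 20.1 in Ctrl and 16.1, 6.87 and 6.09 in Rb2, and these ranges overlapped through Rb2 replicate 1.

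The pore subunits did not pass the test. Sec61a1, the channel itself, had 135, 195 and 226 CPM in Ctrl and 208, 202 and 179 in Rb2, and Ctrl replicate 1 was the lowest of the 6. Its log2 fold change was 0.09 (SE 0.17; edgeR adjusted p = 0.821). It was -0.08 without Ctrl replicate 1 and 0.27 without Ctrl replicate 3. Sec61b had 1868, 1725 and 1574 CPM in Ctrl and 1581, 1525 and 1517 in Rb2 (log2 fold change -0.16, SE 0.08; adjusted p = 0.311).

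Sec61g had 1932, 1796 and 1611 CPM in Ctrl and 1676, 1627 and 1589 in Rb2 (log2 fold change -0.13, SE 0.08; edgeR adjusted p = 0.441), a sign that turned, to 0.09, with an offset for length. Both small subunits were highest in Ctrl replicate 1 and lowest in Rb2 replicate 3, and Sec61g over Sec61b per kb was 1.82, 1.84 and 1.80 in Ctrl and 1.87, 1.88 and 1.85 in Rb2. The value of Sec61g is uncertain, because RefSeq lists 13 further genes or pseudogenes named like Sec61g that have no row in the count table, and how shared reads were assigned is not given in the sources used here. Per kb, Sec63 over Sec61a1 went from 0.0118 ± 0.00541 to 0.0392 ± 0.0196 (Ctrl, then Rb2; SD, n = 3), and Sec62 over Sec61a1 from 0.204 ± 0.0394 to 0.311 ± 0.034. Both ratios were above Ctrl in every Rb2 sample. For Sec63 over Sec61a1 this was by little, at 0.018 in Ctrl replicate 1 and 0.0185 in Rb2 replicate 1. These values rest on 38 and 41 counts of Sec63, a difference within counting error.

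Of the 4 subunits of the TRAP complex only Ssr3 was called. Differences between the subunits were not tested. Ssr3, the gamma subunit, had 13.7, 18.4 and 22.7 CPM in Ctrl and 35.4, 41.6 and 33.7 in Rb2, with no overlap. The log2 fold change was 1.02 (SE 0.20; edgeR adjusted p = 0.0365). As for Sec62, the call was kept without Ctrl replicate 1 or 3 and lost without Ctrl replicate 2 or any of Rb2 replicates 1 to 3 (log2 fold change 1.04, 1.05, 0.93 and 1.08; adjusted p 0.109 to 0.198).

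Ssr1, the alpha subunit, had 45.7, 42.5 and 45.4 CPM in Ctrl and 57, 53.9 and 53.2 in Rb2. All Rb2 samples were higher, as in 15.0% of all genes tested, and the log2 fold change of 0.29 (SE 0.11) did not pass the test (edgeR adjusted p = 0.183). Ssr2, the beta subunit, had 356, 457 and 449 CPM in Ctrl and 451, 431 and 410 in Rb2, and the groups overlapped (log2 fold change 0.03, SE 0.11; adjusted p = 0.89). Its sign turned in several fits, among them the one without Ctrl replicate 1, at -0.06.

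Ssr4, the delta subunit, had 572, 553 and 545 CPM in Ctrl and 488, 468 and 462 in Rb2. All Rb2 samples were lower, as in 12.2% of all genes tested. The log2 fold change was -0.24 (SE 0.08; edgeR adjusted p = 0.125), and it passed the threshold only without Ctrl replicate 1 (-0.20; adjusted p = 0.0495). Per kb, Ssr3 over Ssr1 was 0.238, 0.345 and 0.397 in Ctrl and 0.494, 0.613 and 0.503 in Rb2. Ssr3 over Ssr4 was 0.00817 ± 0.00219 and 0.0193 ± 0.00232 (SD, n = 3). Neither ratio overlapped between the groups.

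Tram1 was counted 0, 1 and 0 times in Ctrl and 2, 3 and 3 times in Rb2, and was not tested. RefSeq lists 1 further gene or pseudogene named like Tram1 that has no row in the count table. As for Sec61g, how shared reads were assigned is not given, so the level of Tram1 is uncertain. The ratio of the summed Tram1 counts, scaled for library size, was 9.27 with a 95% interval of 1.24 to 411, from counting error alone. All but the Rb2 replicates 2 and 3 were under the 3 counts that a count of 0 allows. Tram2, a relative of Tram1, is described among the neighbours of the pathway below.

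Gene length ran along with the fold changes. Sec63 (5954 bases) and Ssr3 (4162 bases) were in the longest of 5 equal classes of known genes, Sec61a1, Ssr1 and Tram1 in class 4, Sec62 (1818 bases) in class 2, and Sec61b, Sec61g, Ssr2 and Ssr4 in the shortest. Over all known genes tested, the median log2 fold change was -0.05 in the shortest class and 0.09 in the longest, and the share called higher was 1.36% and 3.33%. Averaged over counts, transcript length was 1191 ± 31.8 bases in the Ctrl and 1250 ± 5.76 bases in the Rb2 libraries (SD, n = 3). When each library was given an offset for length, the log2 fold change was 1.73 for Sec63 (edgeR adjusted p = 0.0492), 0.66 for Sec62 (adjusted p = 0.0451) and 0.88 for Ssr3 (adjusted p = 0.0643), so the call of Ssr3 was lost. The part of length in these changes beyond this offset was not tested.

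**Figure D2:**
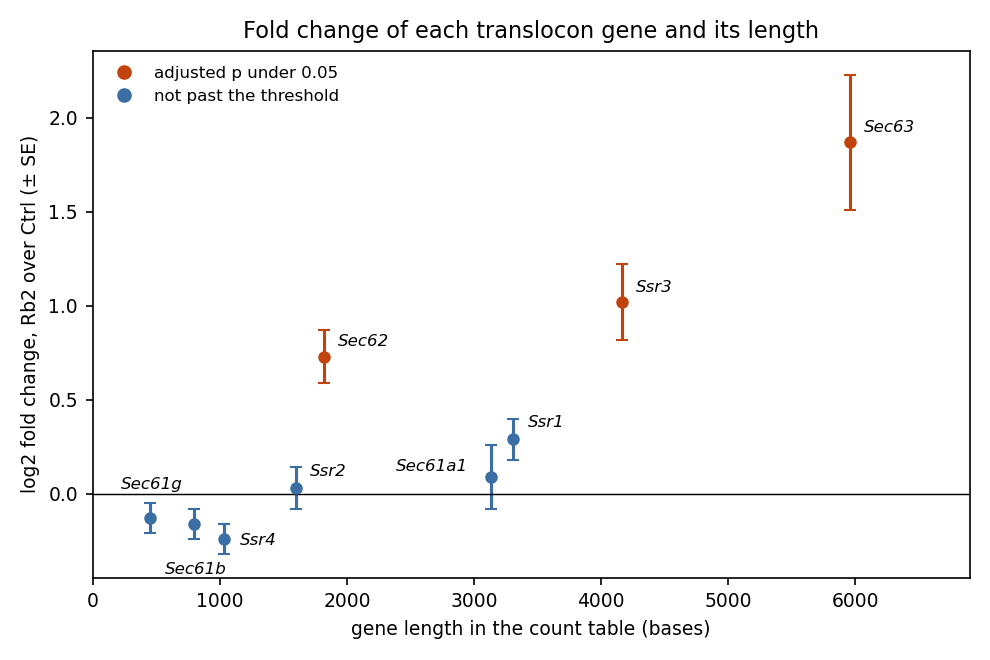
Log2 fold change of Rb2 over Ctrl (edgeR, ± SE) for the 9 tested genes against the gene length in the count table; orange marks the 3 called genes. The longest genes, Sec63 and Ssr3, have the largest changes (1.87 and 1.02), and Sec62 is called at 1818 bases, between Ssr2 and Sec61a1 in length, which are near 0.

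The transcript table splits these genes into 37 transcripts, of which 25 are new models of the authors and 6 had no count. Of the 15 tested, 0 were called by edgeR, as were 0% of all 16679 transcripts tested (2304 had an unadjusted p under 0.05). DESeq2 gave an adjusted p for 12 of them and called 4, against 4.21% of the 8257 transcripts with an adjusted p: Sec63-201, Sec62-201, ONT.10094.2 of Ssr3 and ONT.19121.3 of Ssr4. Sec62 was counted as Sec62-201 alone, and Sec61a1, Sec61g and Ssr2 had over 98% of their counts in one annotated transcript in every sample.

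Sec63 was counted as a long transcript, Sec63-201 (5855 bases), and a shorter one, Sec63-202 (2557 bases). Sec63-201 had 23, 12 and 16 counts in Ctrl and 31, 80 and 88 in Rb2, and Sec63-202 had 15, 5 and 6 counts and then 10, 12 and 18. The share of Sec63-201 was 60.5%, 70.6% and 72.7% in Ctrl and 75.6%, 87% and 83% in Rb2. Every Rb2 share was higher, but the 95% Wilson intervals were wide at these counts, at 44.7% to 74.4% in Ctrl replicate 1 and 60.7% to 86.2% in Rb2 replicate 1. The log2 fold change was 2.18 (SE 0.43) for Sec63-201 and 0.87 (SE 0.44) for Sec63-202. The test of transcript usage did not call Sec63 (diffSpliceDGE adjusted p = 1), nor any of Sec61b, Ssr3 and Ssr4, the other genes it could be run on. It called 0.357% of the 3361 genes tested.

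**Figure D3:**
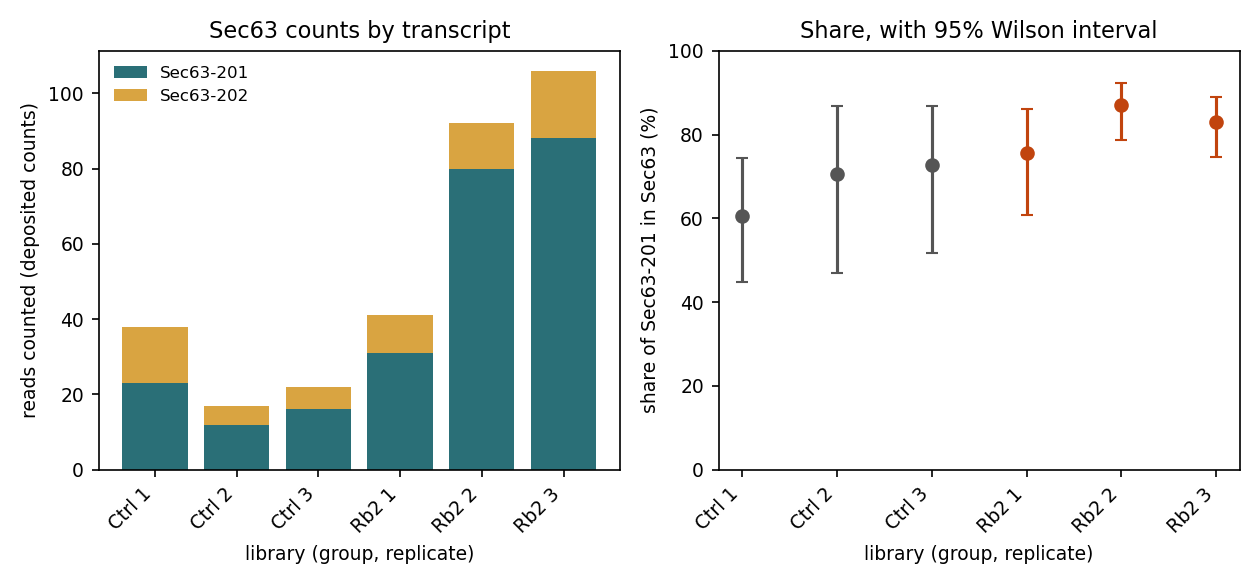
Left, deposited counts of the Sec63 transcripts in each library, not scaled for depth; right, the share of Sec63-201 in all Sec63 counts with its 95% Wilson interval. Most of the added counts in Rb2 are of Sec63-201, and the intervals of most libraries overlap.

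Ssr3 had no annotated transcript with counts. ONT.10094.2 (3008 bases) held 86.8% ± 2.19 of its counts in Ctrl and 82.4% ± 2.89 in Rb2, and ONT.10094.4 (3959 bases) 12.9% ± 2.40 and 16.7% ± 4.10 (SD, n = 3). Both stood higher in Rb2, by 0.94 (SE 0.22) and 1.38 (SE 0.34) on the log2 scale, without passing the test (edgeR adjusted p = 0.188 and 0.199). Ssr4 was counted mainly as ONT.19121.3, at 97.5% ± 0.402 in Ctrl and 97.3% ± 0.298 in Rb2, beside ONT.19121.1 at 2.28% ± 0.383 and 2.60% ± 0.203.

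Sec61b was split between the new models ONT.13533.3 (52% ± 2.60 in Ctrl, 50.6% ± 1.26 in Rb2) and ONT.13533.4 (42.5% ± 2.46 and 43.4% ± 1.43), with the annotated Sec61b-201 at 5.31% ± 0.199 and 5.65% ± 0.398. A rare model, ONT.13533.2, was at 27, 8 and 0 counts in Ctrl and 44, 30 and 0 in Rb2, absent from replicate 3 of each group. Ssr1 was mostly Ssr1-201, at 88.1% ± 8.09 in Ctrl and 92.1% ± 3.07 in Rb2. Its Ssr1-202 was counted 47, 6 and 0 times in Ctrl and 0, 4 and 7 times in Rb2, so Ctrl replicate 1 alone held most of it. The models ONT.7705.9, ONT.7705.7 and ONT.7705.8 of Ssr1 each had under 5% of its counts in every sample.

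The machinery around the translocon was followed in 10 lists by role, from the signal recognition particle to ER-associated degradation. Of 85 listed genes 78 matched a row and 77 were tested, of which 5 were called higher and 1 lower, where 1.90% and 0.805% of all genes tested were called. The median log2 fold change was 0.05. The 8 genes of BiP, its J proteins and its exchange factors had the highest list median, at 0.35, with 2 called higher. The lowest medians were -1.02 for other translocon genes, with 2 tested, and -0.29 for rough ER shape, with 7 tested. The lists for the signal recognition particle, oligosaccharyltransferase, the multipass translocon, tail-anchor insertion and rough ER shape had no call.

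Among the partners of BiP, Dnajc10, a J protein that reduces disulfides, had 13.8, 14.1 and 16.2 CPM in Ctrl and 27.6, 28.6 and 25.2 in Rb2 (log2 fold change 0.88, SE 0.15; edgeR adjusted p = 0.0294). Dnajc3, a J protein also known as an inhibitor of the eIF2-alpha kinases, had 18.9, 25.8 and 28.5 CPM and then 39.3, 42.3 and 43.4 (0.78, SE 0.17; adjusted p = 0.0464). Hspa5, which encodes BiP itself and is named here after its values were seen, had a mean of 161 ± 13.6 CPM in Ctrl and 208 ± 1.99 in Rb2 (SD, n = 3; adjusted p = 0.0662). All its Rb2 samples lay above Ctrl, as in 15.0% of all genes tested, but it missed the threshold.

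Spcs1, a subunit of the signal peptidase that cuts signal peptides after entry, had 234, 244 and 255 CPM in Ctrl and 323, 325 and 308 in Rb2 (log2 fold change 0.38, SE 0.08; edgeR adjusted p = 0.0464). Erlec1, a lectin of ER-associated degradation, had 13.8, 11.2 and 13.3 CPM and then 21.2, 22.5 and 21.7 (0.77, SE 0.16; adjusted p = 0.0423). Mmgt1, a subunit of the ER membrane complex that inserts membrane proteins, had few counts: 7, 3 and 8 in Ctrl and 21, 18 and 16 in Rb2 (1.80, SE 0.37; adjusted p = 0.042). Tram2 was the one gene called lower, from 27, 28 and 26 counts to 9, 9 and 8 (-1.44, SE 0.30; adjusted p = 0.043).  None of these 6 kept its call without Ctrl replicate 2, or without any 1 of Rb2 replicates 1 to 3 (adjusted p from 0.0949 for Dnajc10 to 0.238 for Spcs1), and Tram2 also lost it without Ctrl replicate 3 (0.0519). In the former 4 fits the log2 fold changes were 0.85 to 0.94 for Dnajc10, 0.75 to 0.83 for Dnajc3, 0.37 to 0.41 for Spcs1, 0.69 to 0.79 for Erlec1, 1.57 to 1.87 for Mmgt1 and -1.47 to -1.30 for Tram2. Over all genes tested, those fits called 2, 25, 0 and 1 higher, against 219.

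The most abundant gene of each list without a call did not pass the test. Ost4, of oligosaccharyltransferase, had 2464 ± 233 CPM in Ctrl and 2284 ± 92.3 in Rb2 (SD, n = 3), and Srp14, of the signal recognition particle, 228 ± 14.2 and 235 ± 5.28. Wdr83os, of the multipass translocon, had 393 ± 35.8 and 347 ± 12.3 CPM. Ubl4a, of tail-anchor insertion, had 247 ± 14.7 and 216 ± 11, and Reep5, which shapes ER tubules, 544 ± 63.3 and 445 ± 15.1. The last pair lay below Ctrl in every Rb2 sample, as did 12.2% of all genes tested (edgeR adjusted p = 0.268 and 0.138).

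**Figure D4:**
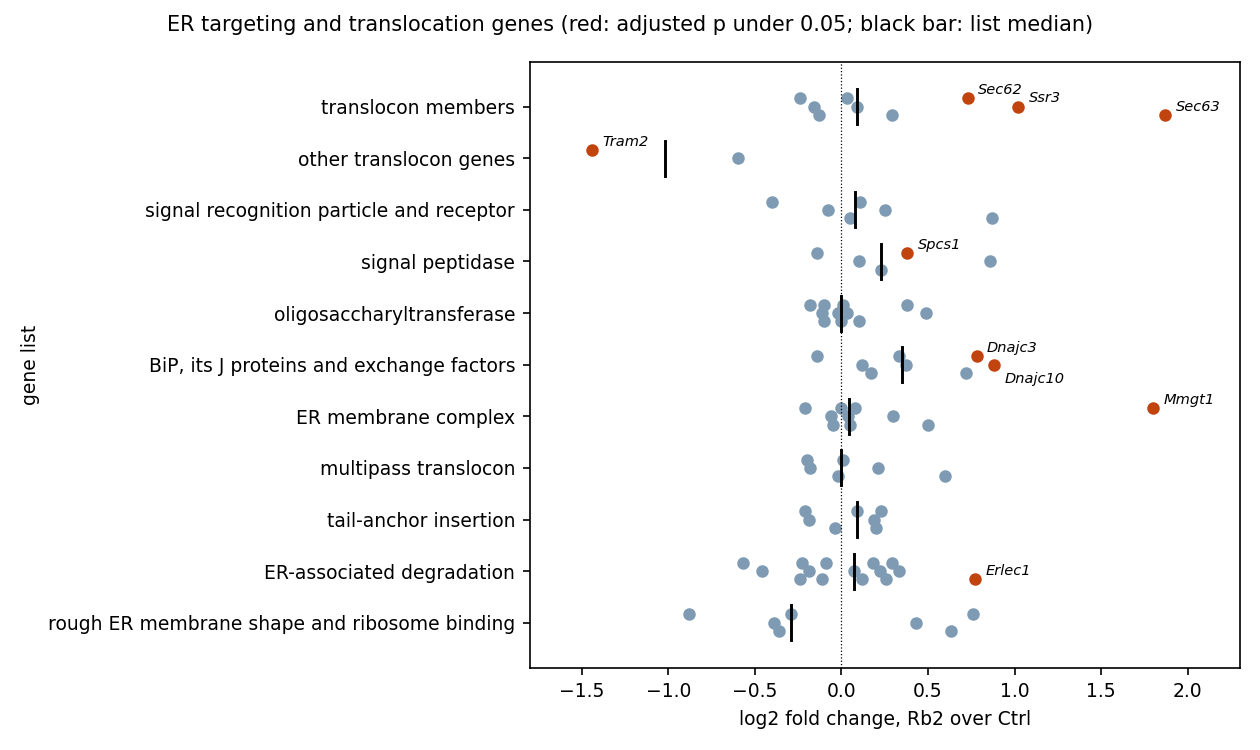
Log2 fold change of Rb2 over Ctrl for each tested gene of the translocon and of the 10 lists around it; red marks an edgeR adjusted p under 0.05 and black bars are list medians. Most genes lie near 0, and the called genes of the lists are Dnajc10, Dnajc3, Spcs1, Erlec1 and Mmgt1 above and Tram2 below.

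The genes most like Sec63 over the 6 samples were ranked by Pearson r on log2 CPM among 6536 named genes whose mean reached 5 CPM. Paip1, which binds the poly(A)-binding protein in translation, came first at r = 0.9983, with 6.92, 5.60 and 6.12 CPM in Ctrl and 9.97, 18.9 and 21.3 in Rb2. Asf1a, a histone chaperone (r = 0.9777), had 16.4, 14.8 and 12.9 CPM and then 20.1, 47.8 and 54.6. Like Sec63, both were high in Rb2 replicates 2 and 3 and much closer to Ctrl in Rb2 replicate 1.

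Smc3, a cohesin subunit (r = 0.9869), Hnrnpm, an RNA-binding splicing factor (0.9772), and Ccz1b, of vesicle traffic (0.9757), had smaller log2 fold changes, of 0.59, 0.47 and 0.30. Of these only Smc3 had the same order of samples as Sec63. In all, 24 genes had an r of at least 0.95. Among the translocon genes, r with Sec63 was 0.84 for Sec62, 0.79 for Ssr1, 0.78 for Ssr3 and -0.92 for Ssr4. For the others tested it was 0.02 for Sec61a1, -0.11 for Ssr2, -0.59 for Sec61g and -0.68 for Sec61b. These r values rest on the same 6 libraries and on the group difference that chose Sec63, and are descriptions.

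**Figure D5:**
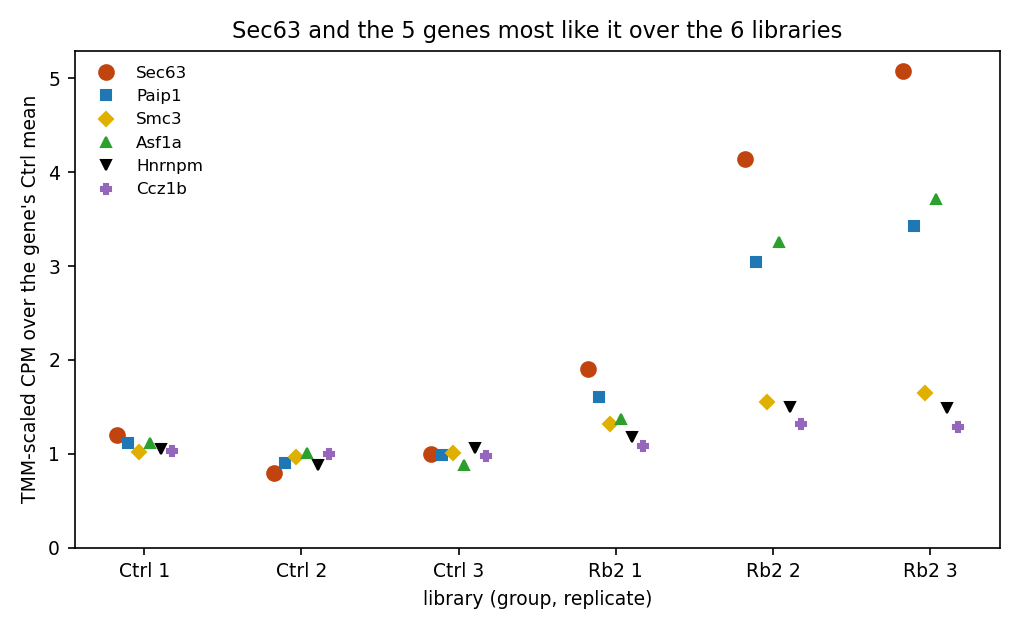
Level of Sec63 and of the 5 genes most like it in each library, as TMM-scaled CPM over the gene's own Ctrl mean. Sec63, Paip1 and Asf1a are high in Rb2 replicates 2 and 3 and lower in Rb2 replicate 1.

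Total counts ran from 5193077 to 8793390 per library, so that 3 counts, the limit that a count of 0 allows, were 0.341 to 0.578 CPM. All 10 translocon genes together made up 0.454% ± 0.00931 of a Ctrl library and 0.456% ± 0.00591 of an Rb2 library (SD, n = 3). The labels call the cells embryonic cardiomyocytes. Of 10 cardiac markers 8 had a row, with a summed level of 56.1 to 74.3 CPM in Ctrl and 54.6 to 63.8 in Rb2, mostly Tnnt2. Gata4 and Nkx2-5 were counted, while Myh7, Tnni3, Actn2 and Myl7 had a mean under 0.1 CPM in both groups. Skeletal myoblast markers summed to 35.4 to 45.4 CPM in Ctrl and 40.9 to 48.6 in Rb2, with Myod1, Myog and Des counted and Myf6 at 0. Fibroblast markers, mainly collagens and Vim, summed to 4841 to 5145 CPM and 5193 to 5631, with Pdgfra near 0. Of the 4 epithelial markers Epcam, Cdh1 and Krt18 were at 0 in every library, while Krt8 had a mean of 36.8 CPM in Ctrl and 36.1 in Rb2. Of the leukocyte markers Ptprc was at 0, and the list summed to 0.904 to 1.92 CPM in Ctrl and 0.52 to 2.58 in Rb2. The endothelial list, with 1 row matched, reached at most 0.178 CPM. The part of these markers in the changes above was not tested.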

How the data were processed

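RNA was sequenced from 3 Ctrl and 3 Rb2 samples of H9c2. The authors deposited whole-number counts per gene and per transcript, with lengths in bases, and CPM, recomputed from the counts to within 4.9e-11. The submitters' processing notes name HISAT2, DESeq2 and the mouse build mm10 without a role, while gene identifiers are of rat; no coordinates from the files are given. For the counter and the annotation version, nothing is given in the sources used here. Each table also has 18 columns with the names of other samples, which are not used here. The sequencing kit in the labels is for short reads, but new models carry ONT names.

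The edgeR package (4.0.16, R 4.3.3) tested the counts (TMM scaling, filterByExpr, robust quasi-likelihood fit, group as the only term). P-values were adjusted by Benjamini-Hochberg over all genes or transcripts tested, and a call is an adjusted p under 0.05. Reported CPM are scaled by TMM, and each log2 fold change sets Rb2 against Ctrl. A prior count of 2 was used only for the log2 CPM behind the length offset and the likeness to Sec63. The SE given with an edgeR log2 fold change was worked back from the test. It is the size of the change over the square root of the quasi-likelihood F statistic. Transcript usage was tested with diffSpliceDGE. Poisson and Wilson intervals are at 95% and cover counting error only. The fits were also run on simulated counts with known changes, drawn with means and dispersions taken from these libraries. The simulation held no length trend and no replicate effect, so it says nothing about either.

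The members and lists were chosen with earlier results of these data known. The text names all 10 members, their transcripts with a mean of at least 1 CPM, up to 4 called genes of each list by p or otherwise its most abundant gene, and the 5 genes most like Sec63; any other name is marked. Of 134 genes in all lists, markers included, 118 matched, 2 of them by an older symbol. Alternatives were RLE, upper-quartile and library-size scaling, other filters, DESeq2 1.42.0, limma-voom (limma 3.58.1), limma on the deposited CPM (log2, pseudocount 1 or 0.1), the replicate number as a block, a length offset (loess, span 0.5), known genes only, and each sample left out in turn. The alternatives for the lists and the motifs CCAAT and CCACG alone were chosen after seeing the data.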

Additional observations from a re-analysis of the deposited data

How the results depend on the processing

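Over 18 alternatives the log2 fold changes of Sec63, Sec62 and Ssr3 stayed positive, at 1.58 to 2.18, 0.66 to 0.84 and 0.86 to 1.22, and passed the threshold in 10, 13 and 12 of them. Sec63 missed it under limma-voom (1.75, adjusted p = 0.0606) and with known genes only (1.82, edgeR adjusted p = 0.0519), and ranged from 1.58 to 2.18 with a sample left out. The sign of Ssr2 turned under upper-quartile scaling, the length offset and known genes only (-0.01 each), and it ran from -0.06 to 0.11 with a sample left out. Sec61a1 was at -0.04 and Sec61g at 0.09 under the length offset, and Sec61a1 ran from -0.08 to 0.27 with a sample left out. The members' median was 0.23 on the deposited CPM with either pseudocount (1 or 0.1), and -0.05 to 0.27 with a sample left out; members called higher then numbered 0 to 2 and called lower 0 to 1. DESeq2 called 4 member transcripts, and 0 were called in the other alternatives run on transcripts. Correlations of deviations within a replicate number were -0.067, -0.061 and -0.007, and those between different numbers ran from -0.118 to 0.156. With 3 replicates per group, these values cannot settle whether the numbers pair the samples. With the replicate number as a block, 0 members were called (Sec63 1.77, edgeR adjusted p = 0.0776; Sec62 0.73, 0.0797; Ssr3 1.04, 0.0709), and over all genes 12 were higher and 21 lower, against 219 and 93.

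Over all genes, calls higher and lower were 463 and 80 with library size only, 135 and 92 with upper-quartile scaling, 386 and 150 without a filter, 83 and 30 with known genes only, 135 and 114 with the length offset, 514 with deposited CPM plus 1 and 480 plus 0.1 (higher). With a sample left out they ran from 0 to 605 higher and 3 to 291 lower. List genes called higher fell from 5 to 2 under upper-quartile scaling, 1 with known genes only and 0 with the block, and reached 8 without Ctrl replicate 1 or 3. The cause of these shifts was not tested. At 17 to 106 counts per library, depth limits Sec63 and its transcript shares, and Tram1 cannot be tested.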
